A study of Caenorhabditis elegans with 12 samples.

Results

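The genes described here are the numbered math and bath genes of C. elegans, which encode proteins with a MATH domain (math) or with a MATH and a BTB domain (bath). They were taken as every row of antisense reads on a protein-coding gene whose symbol is bath or math followed by a number. This gave 74 genes, 37 bath and 37 math, of 19691 antisense protein-coding rows and 63014 rows with a feature. The values are levels of small RNAs (sRNAs) complementary to the mRNAs, mostly the 22G-RNAs that worm Argonautes carry, and not levels of the mRNAs.

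sRNAs were sequenced from whole young adult worms grown at 20 °C, both from immunoprecipitates (IPs) of the germline Argonaute WAGO-4 and from the same lysates ahead of the IP (inputs). The series compared worms whose GLH proteins, Vasa-type helicases of germ granules, had mutated FG repeats (3xFG) with worms that had them intact (WT). The 3xFG worms were strain SS142, with glh-1(allele50[glh-1F>A]), glh-2(allele49[glh-2 delFG]) and glh-4(allele16[glh-4F>A]), all on chromosome I. The WT worms were strain YY1325. Both groups carried wago-4(gg620[3xflag::gfp::wago-4]) on chromosome II, so every library came from worms with a tagged WAGO-4, and each genotype was 1 strain. Each genotype had 3 IPs and 3 inputs, 12 libraries in all.

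In proteins with both domains, the MATH domain holds a substrate and the BTB domain binds the cullin CUL-3, so that the protein serves as the substrate adaptor of a ubiquitin ligase. MEL-26, the adaptor that brings the microtubule-severing katanin MEI-1 to CUL-3 in the early embryo, is the best studied case in the worm. Both gene families are much larger in nematodes than in vertebrates, and many copies lie side by side.

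The input libraries differed in depth, with 11890545 to 78826261 reads in 3xFG and 2208475 to 20006273 in WT. WT inputs 1 and 2 carried the batch label A and the other libraries B. Reads on rRNA made up 15.9% to 21.2% of the named reads in the 4 batch B inputs and 3.39% and 5.26% in the 2 batch A inputs. The only WT input of batch B was replicate 3, so a comparison within batch B set 3 inputs against 1. The authors describe the 3 replicates of each genotype as biological, and each had its own lysate. Nothing in the labels says how their worms were grown. The p-values measure the spread between these libraries, part of which may be technical. Whole worms were used, so fewer germ cells and less sRNA per cell cannot be told apart.

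The family lay mostly in dense groups on chromosome II. In the WBcel235 annotation 61 of the 74 genes were on chromosome II, 58 of them in its first 4000000 bases, with 5 on chromosome I, 4 on III, 3 on V and 1 on IV. When neighbours less than 50 kb apart were joined, the largest group ran from 1763372 to 2046656 on chromosome II and held 39 members, 29 math and 10 bath. A second group of 7 bath genes lay at 3343731 to 3378834. Exons of 9 members overlapped another gene on the same strand and exons of 7 overlapped one on the opposite strand, and many members are paralogs, so reads may be shared between close copies.

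Antisense sRNA levels differed widely within the family. Levels were set against exon length, as counts scaled to the named reads of each library (CPM) per kb, averaged over the 6 inputs. The bath genes had a median of 13.6 CPM per kb (range 0.0275 to 2444) and the math genes a median of 0.311 CPM per kb (range 0.0423 to 79.9), against a median of 0.824 over the 19679 antisense protein-coding rows with an exon length. Above 100 CPM per kb lay 10 members, all bath genes, which is 13.5% of the family against 2.11% of all antisense protein-coding rows. Of the 37 math genes, 10 exceeded 1 CPM per kb, and the highest was math-1 at 79.9.

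**Figure D1:**
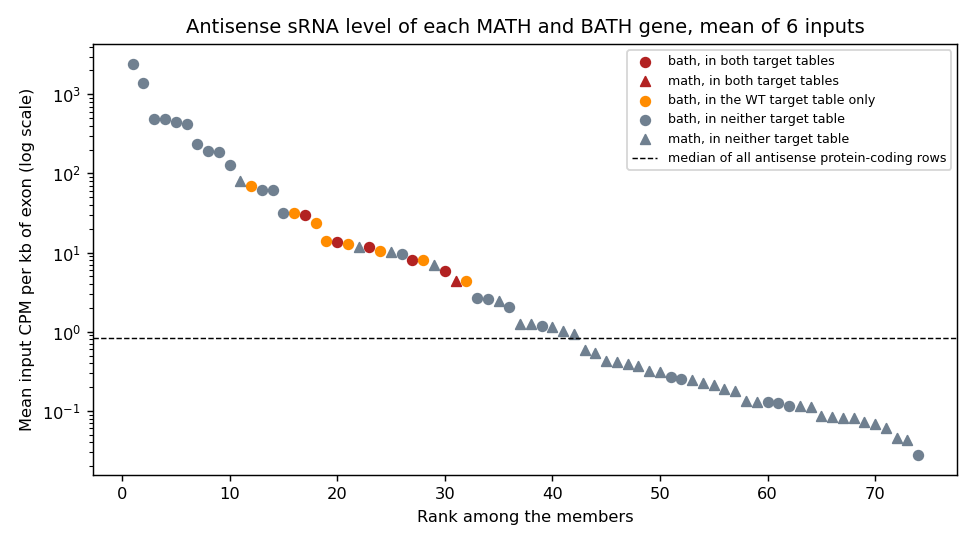
Mean input level of each of the 74 members in CPM per kb of exon (log axis), ordered by rank. Circles are bath genes and triangles are math genes, and colour shows presence in the WAGO-4 target tables. The 10 members above 100 CPM per kb are in neither table.

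The highest member was bath-45 (WBGene00009247, chromosome II, 13123020 to 13125189, plus strand, 8 exons), which lies alone, far from the clusters. It had 3814, 4199 and 3993 CPM in the 3xFG inputs and 5333, 4988 and 4436 CPM in the WT inputs. Its mean of 2444 CPM per kb was the 12th highest of all antisense protein-coding rows. The 2 genotypes did not overlap, but the WT input closest to 3xFG was the one of batch B. The log2 fold change of bath-45 was -0.49 (SE 0.21, edgeR adjusted p = 0.19), which did not pass the test.

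The next member was bath-20 (WBGene00015012, chromosome II, 2040276 to 2042547, minus strand), at the end of the large group. It had 1994, 2023 and 1705 CPM in the 3xFG inputs and 3970, 3599 and 2670 CPM in the WT inputs, again without overlap. At 1388 CPM per kb it ranked 34th of all antisense protein-coding rows. In each input, bath-45 held 40.5% to 46.1% of the reads on the family and bath-20 held 19.7% to 30.8%. All math genes together held 0.793% to 1.29%.

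Next per length came bath-13, bath-21 and bath-24, with 491, 489 and 453 CPM per kb. Of these, bath-13 (chromosome II, 2520842 to 2522060) had 371, 395 and 345 CPM in the 3xFG inputs and 719, 688 and 558 CPM in the WT inputs. Levels of bath-21 (chromosome II, 2014902 to 2026625) were 514, 550 and 548 CPM in the 3xFG inputs and 489, 492 and 398 CPM in the WT inputs. Though close in mean level, bath-13 had lower values and bath-21 higher values in every 3xFG input than in any WT input. For bath-21 the log2 fold change after TMM scaling was 0.03 (SE 0.18, edgeR adjusted p = 0.95).

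The other 5 members above 100 CPM per kb were bath-23, bath-35, bath-7, bath-1 and bath-15, named here for their level, and none passed the input test. Of these, bath-23 is protein-coding in the WBcel235 annotation but a pseudogene in RefSeq. Levels of bath-23 were 299, 304 and 358 CPM in the 3xFG inputs and 308, 310 and 262 CPM in the WT inputs, and those of bath-7 were 204, 208 and 210 CPM in the 3xFG inputs and 192, 220 and 191 CPM in the WT inputs. The genotypes overlapped for both genes, as they did for bath-35 and bath-1. The fifth, bath-15 (chromosome III, 7774677 to 7776033), lay apart from the clusters and had 167, 176 and 191 CPM in the 3xFG inputs and 108 to 135 CPM in the WT inputs. Its ranges did not overlap, and its log2 fold change was 0.35 (SE 0.16, edgeR adjusted p = 0.23).

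Neighbouring genes differed greatly in level. The 39 members of the large group on chromosome II had a median of 0.546 CPM per kb, while bath-20 (1388), bath-21 (489), bath-24 (453), bath-7 (195), bath-1 (187) and math-1 (79.9 CPM per kb) in the same group were far above it. The group of 7 bath genes ranged between 2.07 CPM per kb for bath-9 and 419 CPM per kb for bath-23. The 5 members at 1577378 to 1606179 and the 3 at 2099926 to 2155220 had highest values of 0.264 and 0.596 CPM per kb. Of these members only math-42, with a mean of 1.61 CPM, was tested (log2 fold change 0.39, SE 0.54, edgeR adjusted p = 0.73). The rest were too low to compare between genotypes at the depth of WT input 1, where 3 reads are 1.45 CPM.

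Together the family held 0.861%, 0.913% and 0.867% of the named reads in the 3xFG inputs and 1.29%, 1.23% and 1.02% in the WT inputs. The share was lower in every 3xFG input, and the WT input of batch B, at 1.02%, was the lowest of the WT inputs. As a share of antisense protein-coding reads the family had 2.41% ± 0.22 in 3xFG and 3.20% ± 0.20 in WT (SD, n = 3 each). Without bath-45 the share of named reads was 0.480% ± 0.013 in 3xFG and 0.687% ± 0.100 in WT (SD, n = 3 each). No test was run on these sums.

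Summed over the family, nearly all reads were antisense, a share set mostly by bath-45 and bath-20. Sense reads of the same genes made up 1.65%, 1.52% and 1.67% of the family's reads in the 3xFG inputs and 1.30%, 1.27% and 1.55% in the WT inputs. Sense reads outnumbered antisense reads at 14 members, 13 math and 1 bath, and all 14 had at most 100 antisense reads over the 6 inputs.

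The input comparison asked whether the sRNA pool of 3xFG worms differed before the IP. It was fitted over all rows with edgeR's quasi-likelihood test, and a gene was called at an adjusted p under 0.01 with a log2 fold change beyond 1 in either direction. Of the 74 members, 47 passed the filter on low counts, 31 bath and 16 math. Called lower in 3xFG were 2 of these 47, bath-31 and bath-24, against 2.04% of all rows tested, and called higher were 0, against 0.839% of all rows. At an adjusted p under 0.05 with no limit on the fold change, 6 members were lower and 1 was higher, against 6.43% and 3.66% of all rows. Among the 10863 antisense protein-coding rows tested, the shares were larger. They were 9.08% lower and 6.34% higher at that limit, and 3.06% and 1.51% at the limits of a call. The median log2 fold change was -0.07 over the 47 members, 0.18 over the 22301 rows and 0.10 over the antisense protein-coding rows. At an unadjusted p under 0.05, 17 members were lower and 6 higher, against 14.7% and 11% of all rows. DESeq2 called 6 members lower and 2 higher by the same limits, against 7.44% and 3.43% of all rows.

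The clearest member was bath-31 (WBGene00017405, chromosome II, 3731973 to 3733181, plus strand, 4 exons), which had 18.3, 14.9 and 19.3 CPM in the 3xFG inputs and 42.0, 52.3 and 58.7 CPM in the WT inputs. All 3 values in 3xFG were below all 3 in WT, and the WT input of batch B was the highest. The log2 fold change was -1.74 (SE 0.19, edgeR adjusted p = 0.0038). Within batch B, where WT input 3 is the only WT input, it was -1.85.

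The other member called was bath-24 (WBGene00015014, chromosome II, 2044619 to 2045605, minus strand), a near neighbour of bath-20 at the end of the large group. It had 226, 227 and 208 CPM in the 3xFG inputs and 536, 623 and 440 CPM in the WT inputs. The groups were far apart for the spread within each, with 220 ± 10.5 CPM in 3xFG and 533 ± 91.4 CPM in WT (SD, n = 3 each). The log2 fold change was -1.47 (SE 0.21, edgeR adjusted p = 0.0086), and within batch B, with WT input 3 as the only WT input, it was -1.09. With 1 of the 3xFG inputs or WT input 2 left out, bath-31 was at -1.74 to -1.60 and bath-24 at -1.46 to -1.26, but calls over all rows also fell, to between 1 and 108 lower, against 454. With 3xFG input 1, 2 or 3 or WT input 2 left out no member was called lower, without WT input 1 only bath-31 was, and without WT input 3, the only WT input of batch B, 10 members were called.

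**Figure D2:**
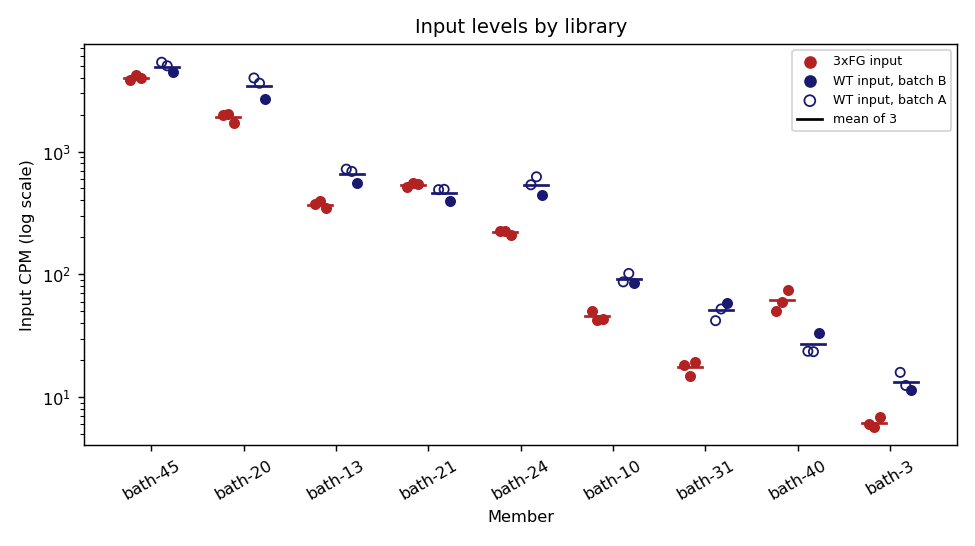
Input CPM (log axis) of 9 members in each library, 3xFG left of WT, with the mean of 3 as a line and the WT inputs of batch A as open circles. For bath-31 and bath-24 the 3xFG inputs lie at 14.9 to 19.3 and 208 to 227 CPM, below every WT input.

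A further 4 members were lower at an adjusted p under 0.05 only. Of these, bath-10 and bath-3, and the members named in the next paragraph, were chosen after their values were seen. Among the abundant ones, bath-20 had a log2 fold change of -1.04 (SE 0.25, edgeR adjusted p = 0.045) and bath-13 one of -1.02 (SE 0.19, edgeR adjusted p = 0.022). For bath-10, in the second group on chromosome II, levels were 50.5, 42.5 and 43.2 CPM in the 3xFG inputs and 86.8, 102 and 85.1 CPM in the WT inputs. Its log2 fold change was -1.20 (SE 0.19, edgeR adjusted p = 0.011). The least abundant was bath-3, with 6.01, 5.71 and 6.88 CPM in the 3xFG inputs and 15.9, 12.5 and 11.4 CPM in the WT inputs (log2 fold change -1.28, SE 0.26, edgeR adjusted p = 0.028). For bath-20 the change was smaller within batch B, at -0.58, with WT input 3 as the only WT input.

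Higher at an adjusted p under 0.05 was bath-40 (WBGene00013689, chromosome I, 14647782 to 14651288, plus strand). It had 50.0, 59.0 and 74.9 CPM in the 3xFG inputs and 23.6, 23.5 and 33.6 CPM in the WT inputs. Its log2 fold change of 0.99 (SE 0.20, edgeR adjusted p = 0.027) lay just short of 1. Within batch B, with WT input 3 as the only WT input, it was 0.76. Larger but less certain increases were seen at math-46 (1.22, SE 0.33, edgeR adjusted p = 0.065) and bath-38 (1.40, SE 0.37, edgeR adjusted p = 0.060). Their 3xFG inputs, at 13.5 to 16.6 CPM and 5.54 to 7.43 CPM, lay above their WT inputs, at 4.21 to 7.35 CPM and 1.79 to 2.86 CPM.

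Ranges of the 3 inputs per genotype did not overlap for 24 of the 47 members, 12 lower and 12 higher in 3xFG, against 36.8% of all rows tested. By table, the 33 tested members in neither target table had a median log2 fold change of -0.37, with 23 of them negative, and held all 6 decreases at an adjusted p under 0.05. The 14 members in a target table held the 1 increase and none of the decreases, with medians of 0.14 for the 6 in both tables and 0.04 for the 8 in the WT table only. At that limit 9.08% of all antisense protein-coding rows tested were lower and 6.34% higher. Shares of those rows inside and outside the target tables were not computed. None of these differences between groups of members was tested.

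**Figure D3:**
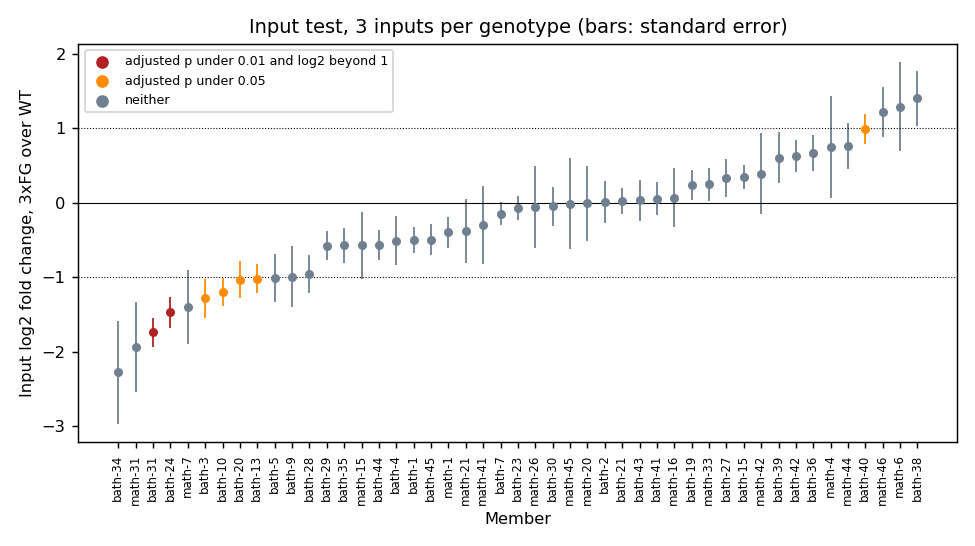
Input log2 fold change (3xFG over WT, edgeR) of the 47 members tested, ordered by value, with standard errors. Red marks the 2 calls, bath-31 and bath-24, and orange the members past an adjusted p of 0.05 only.

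The target tables asked which sRNAs WAGO-4 held. A feature was listed as a target if each of its 3 replicates had at least 5 RPM (the authors' library-scaled read counts) in the IP and at least 2 times the input level, and a table gives values for the targets of its own genotype. IP values of members outside a table were not analysed here. The 3xFG table held 6 members, 8.11% of the family, against 20.7% of all antisense protein-coding rows. The WT table held 14 members, 18.9% of the family, against 24.0% of all antisense protein-coding rows. All 6 members in the 3xFG table were also in the WT table, which is 42.9% of the 14, against 84.9% of the 4720 antisense protein-coding WT targets.

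The targets lay in the middle range of levels, below the 10 members above 100 CPM per kb and above most of the rest. The limit of 5 RPM in each IP makes entry harder at low levels, so the lower side of this range was partly set by the rule. Median input levels were 10.0 CPM per kb for the 6 members in both tables and 13.5 CPM per kb for the 8 in the WT table only, against 0.486 CPM per kb for the 60 in neither. The 6 shared targets were bath-30, bath-40, bath-42, bath-43, bath-44 and math-33, with mean input levels of 4.41 to 29.7 CPM per kb. Of these, math-33 encodes the worm homolog of the deubiquitinase USP7, which has a MATH domain but no BTB domain, and bath-43 carries the name spop-1 in the current annotation, after the human CUL-3 adaptor SPOP. The 8 members listed for WT only were bath-2, bath-4, bath-5, bath-19, bath-27, bath-28, bath-36 and bath-41, with mean input levels of 4.35 to 70.3 CPM per kb. The target members together had 4.07% to 5.02% of the family's input reads in 3xFG and 2.29% to 3.17% in WT.

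The median IP/input ratio of the family's targets was below that of all targets in each pair, by little in 3xFG pair 3. Over the 6 members in the 3xFG table the median ratio was 5.37, 5.39 and 4.22 in the 3 pairs, against 6.15, 6.02 and 4.32 over all 4185 listed features. Over the 14 members in the WT table it was 5.20, 4.60 and 4.37, against 10.2, 8.57 and 7.33 over all 4850 listed features. The mean WT ratio ran between 4.36 and 11.6 for the 6 shared members and between 2.27 and 7.31 for the 8 listed for WT only, 7 of which were under 5. In WT, bath-40 exceeded 76.0% and bath-44 64.8% of all listed features, so not every member was low.

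The lowest ratios in WT were close to the limit of the rule. For bath-36 (chromosome V, 15187888 to 15189588) they were 2.31, 2.51 and 2.00, for bath-4 2.38, 2.38 and 2.93, and for bath-5 2.47, 2.67 and 2.66. Ratios of bath-19 were 3.13, 2.57 and 2.68 and those of bath-2 were 3.42, 2.93 and 4.32. These 5 members had at least 1 ratio under 3, and with a ratio of at least 3 in each pair 9 of the 14 were left in WT. For the 3xFG table the same limit left 5 of 6, without bath-30.

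A member well inside the WT rule and not in the 3xFG table was bath-41 (WBGene00018137, chromosome III, 6720415 to 6722258, minus strand). It had 462, 545 and 952 RPM in the WT IPs, the highest IP level of the 14 listed members, and 65.7, 97.7 and 102 RPM in the WT inputs, with ratios of 7.04, 5.58 and 9.30. Its inputs were 129, 96.3 and 116 CPM in 3xFG and 71.9, 106 and 110 CPM in WT, so the genotypes overlapped (log2 fold change 0.06, SE 0.22, edgeR adjusted p = 0.91). The other WT targets with ratios above 3 in every pair and no entry for 3xFG were bath-27 (76.9, 109 and 62.3 RPM in the WT IPs) and bath-28 (50.6, 52.2 and 43.0 RPM). They lie in the second group on chromosome II, beside the shared target bath-30. On the same strand, exons of bath-27 overlap lido-14 by 610 bp and those of bath-28 overlap F14D2.15 by 24 bp. On the opposite strand, exons of bath-41 overlap F37A4.3 by 89 bp.

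**Figure D4:**
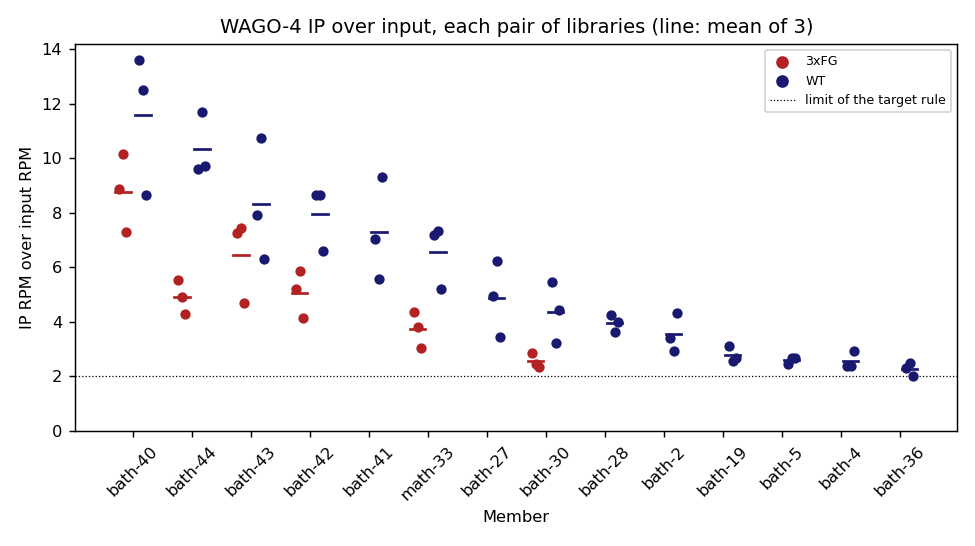
IP/input ratio of RPM in each pair of libraries for the 14 member targets, 3xFG left of WT, with the mean of 3 as a line. The dotted line is the limit of 2 in the target rule. Members without red points were not in the 3xFG table, and 7 of these 8 have a mean WT ratio under 5.

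For the IP levels, limma-trend was fitted on log2(RPM + 1) to the 4080 features that both tables hold, with the same limits. Of the 6 shared members, 1 was called lower in the 3xFG IPs, against 19.7% of all features, and 0 were called higher, against 0.613%. At an adjusted p under 0.05 with no limit on the fold change, 2 were lower and 1 was higher, against 49.2% and 13.9%. The median log2 fold change was -0.21 over the 6 members and -0.30 over the 4080 features. At an unadjusted p under 0.05, 3 members were lower and 1 higher. Already at an adjusted p under 0.05, 49.2% of all features were lower and 13.9% higher. These fold changes understate those of features with few RPM.

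The member called was bath-44 (WBGene00015567, chromosome II, 7394955 to 7397351, plus strand, 9 exons). It had 68.4, 73.7 and 77.4 RPM in the 3xFG IPs and 205, 232 and 197 RPM in the WT IPs. The 3xFG IPs lay between 68.4 and 77.4 RPM, far below the WT range, with a log2 fold change of -1.52 (SE 0.10, limma adjusted p = 3.2e-06). In the inputs bath-44 had 12.4, 15.0 and 18.0 RPM in 3xFG and 21.3, 19.8 and 20.3 RPM in WT, also without overlap but closer (edgeR log2 fold change -0.57, SE 0.20, edgeR adjusted p = 0.13). The call in the IP was kept under every alternative tried, with log2 fold changes of -1.56 to -1.22.

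The member that moved the other way was bath-40, with 379, 507 and 482 RPM in the 3xFG IPs and 259, 246 and 247 RPM in the WT IPs. Every 3xFG IP exceeded every WT IP, and the log2 fold change was 0.85 (SE 0.11, limma adjusted p = 0.00022), short of the limit of 1. Only 1.1% of the 4080 features had a higher fold change. In the inputs it had 42.7, 49.8 and 66.2 RPM in 3xFG and 19.0, 19.6 and 28.5 RPM in WT, so input and IP were both higher. After TMM scaling, which moved the median of all features by 0.30, bath-40 was at 1.15 and was called higher.

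The other shared members differed less. For bath-30 the IPs had 39.8, 31.6 and 31.3 RPM in 3xFG and 47.5, 47.6 and 54.6 RPM in WT (log2 fold change -0.54, SE 0.13, limma adjusted p = 0.0053). For math-33 they had 62.1, 68.6 and 74.2 RPM in 3xFG and 97.1, 97.4 and 71.1 RPM in WT, with an overlap at WT replicate 3 (log2 fold change -0.36, SE 0.14, limma adjusted p = 0.051). The IPs overlapped for bath-42 (67.2, 87.3 and 75.5 RPM in 3xFG, 74.5, 64.9 and 58.0 RPM in WT) and for bath-43 (51.1, 66.1 and 60.8 RPM in 3xFG, 60.9, 66.2 and 58.8 RPM in WT). Their log2 fold changes were 0.22 (SE 0.13, limma adjusted p = 0.18) and -0.07 (SE 0.12, limma adjusted p = 0.64).

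**Figure D5:**
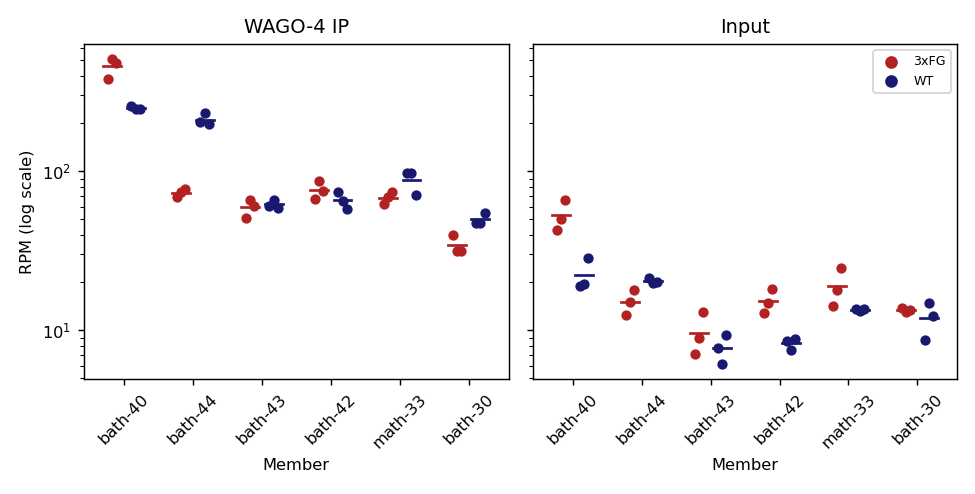
RPM (log axis) of the 6 members in both target tables, in the IPs and in the inputs, 3xFG left of WT, with the mean of 3 as a line. In the IPs bath-44 is lower in 3xFG (68.4 to 77.4 RPM) and bath-40 is higher (379 to 507 RPM), without overlap with WT.

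Whether the IP/input ratio differed between genotypes was tested in 1 limma-trend fit over the 12 libraries, as the interaction of genotype and IP. Called lower was 1 of the 6 members, against 24.1% of all features, and 0 were called higher, against 0.245%. At an adjusted p under 0.05, 3 were lower and 0 higher, against 50.7% and 0.539%. All 6 values were negative in this fit, with a median of -0.65 over the 6 members and -0.67 over the 4080 features. The unadjusted p was under 0.05 for 4 members, all lower, where 50.7% of all features were lower already at an adjusted p under 0.05.

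For bath-44 the ratios were 5.52, 4.91 and 4.30 in 3xFG and 9.62, 11.7 and 9.73 in WT, and the change was -1.09 (SE 0.25, limma adjusted p = 0.00096). The change was -0.79 for math-33 (SE 0.28, limma adjusted p = 0.019) and -0.72 for bath-30 (SE 0.27, limma adjusted p = 0.031). WT pairs 1 and 2 set an IP of batch B against an input of batch A. In a fit with batch as a term, only WT input 3 was left to stand for the WT inputs. There the changes were -1.10 for bath-44, -0.77 for math-33, -0.65 for bath-30, -0.51 for bath-42, -0.07 for bath-43 and 0.003 for bath-40. Ratios of bath-40 were 8.89, 10.2 and 7.29 in 3xFG and 13.6, 12.5 and 8.67 in WT, with a change of -0.35 (SE 0.27, limma adjusted p = 0.26), while its IP level was higher. The changes of bath-42 and bath-43 were -0.58 (SE 0.26, limma adjusted p = 0.063) and -0.33 (SE 0.29, limma adjusted p = 0.33). TMM scaling moved the median of all features by 0.60 and ended the call of bath-44 (-0.43, limma adjusted p = 0.075), as did leaving out WT replicate 2 (limma adjusted p = 0.015). Under it bath-43 and bath-40 had changes of 0.27 and 0.26.

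Most of the partner genes of MATH and BTB proteins on the list were in the target tables. Of 18 genes around CUL-3, which are the cullin, its neddylation enzymes, the COP9 signalosome that removes NEDD8, and MEL-26 with its partners, all but csn-3 were listed, 17 genes in each table, against 20.7% of all antisense protein-coding rows for 3xFG and 24.0% for WT. In the 3xFG IPs, 3 of these 17 were called lower and 0 higher, against 19.7% and 0.613% of all features. At an adjusted p under 0.05, 9 were lower and 1 was higher, against 49.2% and 13.9%. Their median log2 fold change was -0.41, against -0.30 over all features. In the inputs 0 of 17 were called by edgeR, against 2.04% of all rows lower and 0.839% higher, and 0 by DESeq2. At an unadjusted p under 0.05 edgeR had 4, against 14.7% of all rows lower and 11% higher. At an adjusted p under 0.05 it had 0 lower and 1 higher, against 6.43% and 3.66%.

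The adaptor mel-26 was called lower, with 47.9, 47.6 and 50.5 RPM in the 3xFG IPs and 170, 151 and 111 RPM in the WT IPs (log2 fold change -1.53, SE 0.15, limma adjusted p = 3.0e-05). Its inputs were 8.24, 8.96 and 10.9 CPM in 3xFG and 18.3, 13.3 and 11.2 CPM in WT (log2 fold change -0.79, edgeR adjusted p = 0.13), and its change of IP over input was -0.98 (limma adjusted p = 0.0061), which was not called. Its substrate mei-1, the katanin subunit, had 106, 96.4 and 114 RPM in the 3xFG IPs and 202, 232 and 214 RPM in the WT IPs (log2 fold change -1.02, SE 0.10, limma adjusted p = 2.8e-05), and a change of IP over input of -0.60 (limma adjusted p = 0.051). Inputs of mei-1 were 35.8, 33.6 and 50.3 CPM in 3xFG and 49.7, 55.1 and 55.5 CPM in WT, with overlap (log2 fold change -0.62, edgeR adjusted p = 0.083). The signalosome subunit csn-1 had 18.6, 23.4 and 24.5 RPM in the 3xFG IPs and 63.0, 67.0 and 57.2 RPM in the WT IPs (log2 fold change -1.46, SE 0.13, limma adjusted p = 1.8e-05). The change of mei-1 lay at the limit, and with TMM scaling it was -0.72, with 3xFG IP replicate 2 left out -0.96 and with WT IP replicate 2 left out -0.97, none of them called. With TMM scaling mel-26 and csn-1 were still called lower in the IP.

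The cullin cul-3 itself had 87.2, 87.7 and 88.8 RPM in the 3xFG IPs and 80.0, 78.8 and 80.8 RPM in the WT IPs. Every 3xFG value was higher, by a log2 fold change of 0.14 that did not pass the test (SE 0.08, limma adjusted p = 0.18). In IP over input 2 of the 17 were called lower, a smaller share than the 24.1% of all features. These were csn-1 (-1.34, SE 0.27, limma adjusted p = 0.00035, but -0.66 and not called with TMM scaling) and cand-1, which exchanges adaptors on cullins (-1.82, SE 0.25, limma adjusted p = 4.1e-06). For cand-1 the IPs were lower, at 176, 220 and 225 RPM in 3xFG and 358, 357 and 318 RPM in WT, while the inputs were higher, at 80.4, 84.5 and 101 CPM in 3xFG and 36.2, 50.0 and 43.0 CPM in WT.

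Of 25 other genes with BTB, kelch or TRAF-type names, 6 were in the 3xFG table and 7 in the WT table, against 20.7% and 24.0% of all antisense protein-coding rows. In the inputs 17 were tested, with 1 called lower and 1 called higher, against 2.04% and 0.839% of all rows. The 2 calls, named after their values were seen, were kel-3, with 15.6, 16.0 and 17.2 CPM in 3xFG and 41.0, 40.6 and 31.1 CPM in WT, and kel-1, with 1268, 1383 and 1843 CPM in 3xFG and 242, 301 and 319 CPM in WT. Their log2 fold changes were -1.40 (SE 0.20, edgeR adjusted p = 0.0091) and 2.18 (SE 0.20, edgeR adjusted p = 0.0019). Of the 6 listed for both genotypes, kel-3 alone was called lower in the IP (log2 fold change -2.52, SE 0.11, limma adjusted p = 8.2e-07), against 19.7% of all features.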

How the data were processed

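Deposited were raw counts of the 6 inputs by feature and strand, and RPM values of the WAGO-4 targets of either genotype, to which the authors had added 0.01 RPM. The submitters' processing notes name cutadapt 1.15, STAR 2.6.0c and the builds ce10 and ce11, and how reads matching several places were counted is not given in the sources used here. Reads on no feature (4.58% to 6.14%) were left out. CPM were computed from the counts and differ in scale from the deposited RPM.

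Members were found by symbol, and positions and exon lengths come from the WBcel235 annotation by gene identifier. Inputs were tested over the whole count table with edgeR 4.0.16 (quasi-likelihood, TMM, filterByExpr with a minimum count of 10). IP levels and IP over input were tested with limma 3.58.1 (limma-trend, pseudocount 1 on RPM). IP and input of one lysate were matched through the library names. Adjusted p-values are Benjamini-Hochberg over all features tested. DESeq2 1.42.0 was an alternative; R 4.3.3 and Python 3.11.15 were used. On simulated data, 200 of 200 changed rows were recovered in each test, over 21276 rows for the inputs and 4080 for the IPs and IP over input. The changes were large, with median log2 fold changes of 1.96 and -1.98 in the inputs, where 2 unchanged rows were also called. Changed input rows were not low in counts, IP levels were set above the real ones, and no batch was simulated. Recovery of smaller changes, of low levels or across batches was therefore not tested.

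The members and lists were chosen with earlier results of these data known. Genes named were every member in a target table, every member called in the inputs, the 5 highest per length, cul-3, mel-26 and called genes of the CUL-3 list; others are marked. A list of CSR-1 targets was held only in part and was not used. The strain prefix of 3xFG follows the labels.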

Additional observations from a re-analysis of the deposited data

Results flagged for a closer look

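The IP/input ratio of bath-44 differed between genotypes by a test of that difference itself, the interaction of genotype and IP. The ratio averaged 4.91 ± 0.61 in 3xFG and 10.4 ± 1.18 in WT (SD, n = 3 pairs each), a change of -1.09 on log2(RPM + 1) (limma adjusted p = 0.00096), lower in 3 of 3 3xFG pairs than in any WT pair. The median change of all 4080 features was -0.67, and 20.0% of them had a lower value. With TMM scaling the change was -0.43 (limma adjusted p = 0.075), and without WT replicate 2 the adjusted p was 0.015 (limma), so neither fit kept the call.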

How the results depend on the processing

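The count of input calls depended on the setting. The 2 members called lower became 6 at an adjusted p under 0.05 with no limit on the fold change, 6 with DESeq2 and 8 with antisense protein-coding rows alone, and ranged between 0 and 10 with 1 input left out. The 0 called higher became 1 by the looser limit, 2 with DESeq2 and 2 with antisense protein-coding rows alone. It ranged between 0 and 1 with 1 input left out (bath-40 without WT input 3). Both bath-31 and bath-24 were called with total-count scaling and without the filter. Batch as a term and the fit within batch B both set the 3xFG inputs against WT input 3 alone, so they are 1 contrast and not 2. In these 2 fits bath-31 was at -1.85 and -1.85 and bath-24 at -1.09 and -1.09. Over all rows, the 454 lower and 187 higher were 3078 and 3960 of 22122 without WT input 3, and 1 and 8 of 25903 without 3xFG input 3. With DESeq2 they were 1660 and 766 of 22301 rows, and with antisense protein-coding rows alone 1260 and 807 of 10882. With total-count scaling 60.7% of all calls were lower, against 70.8% with TMM, and the median of all rows moved by 0.17.

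With replicate numbers as a block, 0 members were called lower and 0 higher in the inputs (edgeR). At an unadjusted p under 0.05 there were 13 of 47, without a share over all rows to set beside them. None of the 22301 rows was called in that fit, and bath-31 (-1.73, edgeR adjusted p = 0.040) and bath-24 (-1.45, edgeR adjusted p = 0.034) changed about as much as without the block. In the IPs the replicate block left 1 lower and 0 higher. Inputs sharing a number correlated at -0.29, -0.03 and -0.25 and IPs at -0.15, 0.31 and 0.20, so the numbers were not taken as pairs. IP and input of one lysate correlated weakly too, at 0.12, 0.05 and 0.02 in 3xFG and 0.01, 0.07 and 0.07 in WT. They were paired by library name and not by these values. With the lysate as a replicate block, IP over input kept 1 lower and 0 higher.

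In the IPs, the looser limit gave 2 lower and 1 higher, and TMM scaling gave 1 higher (bath-40) beside 1 lower; all features had 545 lower and 88 higher, against 803 and 25. In IP over input the looser limit gave 3 lower, TMM scaling 0 lower, and leaving out a lysate between 0 and 1, with 0 without WT replicate 2 (bath-44, limma adjusted p = 0.015). With TMM scaling 72.2% of all calls in IP over input were lower, against 99.0%. With batch as a term the median change of all features in IP over input was -0.53, against -0.67. A minimum ratio of 3 left 9 members in the WT table. Among the named genes, no change past an adjusted p of 0.05 in either setting had the opposite sign in the other. Depth was least in WT input 1, where 3 reads are 1.45 CPM, so most math genes could not be compared.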

Other observations

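The rows of antisense reads on pseudogenes held 19 further bath and math names, none of them in a target table. Of the 8 that passed the filter, 5 were lower in the 3xFG inputs at an adjusted p under 0.05, of which 3 passed both limits (edgeR, over all rows), against 6.43% and 2.04% of all rows. The pseudogene bath-11 had 392, 393 and 427 CPM in the 3xFG inputs and 1086, 1093 and 915 CPM in the WT inputs (log2 fold change -1.55, edgeR adjusted p = 0.0039). The pseudogene bath-22 had 199, 191 and 224 CPM in the 3xFG inputs and 839, 834 and 484 CPM in the WT inputs (log2 fold change -2.02, edgeR adjusted p = 0.0070). The third was bath-18 (log2 fold change -2.30, edgeR adjusted p = 0.0081), with 9.14, 9.99 and 6.70 CPM in the 3xFG inputs and 44.9, 41.6 and 25.6 CPM in the WT inputs.

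Sense reads stood out at a few members. For math-18 there were 6571 sense and 9 antisense reads over the 6 inputs, or 39.7, 46.5 and 51.8 sense CPM in the 3xFG inputs and 57.9, 46.3 and 33.2 sense CPM in the WT inputs, with overlap. For math-33 there were 15.6, 10.99 and 11.1 sense CPM in the 3xFG inputs and 0, 0.612 and 17.8 sense CPM in the WT inputs, where the first 2 values, of 0 and 3 reads, are from batch A. This was not particular to math-33. In WT inputs 1 and 2, bath-40, bath-41, bath-42, bath-43 and bath-44 had 0 to 0.612 sense CPM, against 2.73 to 7.99 in WT input 3. The shared target bath-30 differed, with 1.93, 0.408 and 1.26 sense CPM in the WT inputs. At 0 reads the depth of WT input 1 allows up to 1.45 CPM. The part of the batch in this was not tested.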
